A study of Mus musculus with 10 samples.

Results

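The miRNA hairpin miR-142 was measured through both of its arms, miR-142-3p and miR-142-5p, in cultured B cell progenitors of the mouse. The members are the 2 panel entries named mmu-miR-142-3p and mmu-miR-142-5p, out of 566 probes for mouse miRNAs. The tested cells were 5 samples of the labelled genotype Bim3’UTRmut/mut (mutant 6 to 10), homozygous for a mutation in the 3′ untranslated region of the gene for Bim, a pro-apoptotic protein. Their comparison cells were 5 wild type samples (wild type 1 to 5). All 10 came from C57BL/6 fetal liver of stage E14.5 and were transformed with a retroviral vector for v-Abl, the Abelson kinase, which sustains growth of early B-lineage cells outside the animal, so every sample carries v-Abl. The labels state neither which bases the mutation changes, nor whether samples came from separate embryos, nor whether a culture was a clone or a pool. The p-values therefore reflect only how much these samples vary, part of which may be technical.

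Primary transcripts of miRNA genes are cut by Drosha and Dicer into a short duplex whose strands, the 5p and 3p arms, can each be loaded into an Argonaute protein. The loaded arm then recognises messenger RNAs mainly through its seed, bases 2 to 8. miR-142 is transcribed across blood cell lineages and hardly outside them, and mice without it have disturbed development and function of several lineages, B cells among them. Both arms are known to act on targets, so the arm ratio and the level of each arm are separate measurements.

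The arm sequences are shown because the seeds define what each arm can recognise and because the 3p and 5p letters bear on how the probes can be read. They are RefSeq sequences on the mouse build GRCm38.p6, where the arms carry the newer names miR-142a-3p and miR-142a-5p. Capitals mark the seed.
miR-142-3p: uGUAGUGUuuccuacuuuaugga
miR-142-5p: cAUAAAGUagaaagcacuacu
miR-142b: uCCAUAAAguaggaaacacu
miR-340-5p: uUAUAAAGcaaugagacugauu
The 3p arm lies at chr11:87756903-87756925 and the 5p arm at chr11:87756867-87756887, both on the plus strand. They occupy bases 40 to 62 and 4 to 24 of a 64-base hairpin, with 15 bases between them. In RefSeq the hairpin overlaps no annotated gene except miR-142b on the minus strand (mature arm at chr11:87756906-87756925), and its nearest annotated neighbours are Supt4a and Tspoap1. Neither miR-142 seed occurs in another of the 1679 mature mouse miRNA names of the table. A miRNA with a similar seed is miR-340-5p, at chr11:50069720-50069741 on the plus strand. Its bases 3 to 8 repeat bases 2 to 7 of miR-142-5p (AUAAAG), so the shared letters are shifted by 1 base.

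The arms are in part complementary to each other, as the strands of a hairpin are. The longest run of exact complementarity is 10 bases, in capitals here.
miR-142-3p: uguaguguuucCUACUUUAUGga
miR-142-5p: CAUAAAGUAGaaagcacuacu
miR-142b: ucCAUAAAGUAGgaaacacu
The run covers bases 12 to 21 of the 3p arm and bases 1 to 10 of the 5p arm. The same 10 letters stand in miR-142b, all 20 bases of which are complementary to miR-142-3p. miR-142b has no probe on the panel. The tables used here give no probe sequences, so binding of 1 arm's probe to the other arm, or of the 5p probe to miR-142b, was not tested.

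RNA was counted on a NanoString nCounter panel, which tags each miRNA by ligation and counts barcoded probes one at a time. Libraries held 240469 to 354826 counts over the mouse miRNA probes, from 100 ng of total RNA each. The detection threshold was the mean + 2 SD of a library's 8 negative controls, 90.5 to 127 counts, and a probe was kept if 5 or more libraries passed it, which left 116. Mutant samples ran in lanes 6 to 10 and wild type samples in lanes 1 to 5, and an effect of genotype cannot be told apart from one of the lane. The cell type was checked against marker miRNAs: all 3 B-lymphoid markers (miR-150, miR-155 and miR-181a) were kept. Of their 30 values, 28 exceeded the threshold. The lowest wild type counts of miR-150 and miR-155, 60 and 84, did not. The markers included none for T cells or NK cells, so those cells were not checked for. None of the 18 marker probes for erythroid, myeloid, endothelial, liver, mesenchymal, muscle and neural cells was kept. Of their 180 values, 5 exceeded the threshold: 2 endothelial, 2 myeloid and 1 erythroid. The endothelial markers together reached up to 271 counts in mutant and 88 in wild type libraries. The myeloid marker miR-223 reached up to 137 in mutant and 96 in wild type libraries. In bulk RNA, fewer cells of a type and less RNA per cell cannot be told apart.

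miR-142-3p had one of the highest probe counts of the panel in both genotypes. Its raw counts in mutant 6, 7, 8, 9 and 10 were 24655, 20505, 24461, 29587 and 26200. In wild type 1 to 5 they were 25393, 28843, 25157, 24449 and 20401. The lowest and the highest libraries of the groups nearly coincided, and the ranges overlapped almost completely. The probe held rank 1 of the 566 mouse miRNA probes in 1 mutant and 4 wild type libraries and rank 2 in the others. It took 8.52% ± 0.762 of the mouse miRNA counts in mutant and 9.78% ± 1.12 in wild type samples (SD, n = 5 each). These counts are summed over all 566 mouse miRNA probes, including those that were not kept.

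miR-142-5p was detected in all 10 libraries but close to background. Mutant 6 to 10 had 201, 230, 236, 205 and 241 raw counts, and wild type 1 to 5 had 195, 204, 255, 227 and 243. The groups overlapped, and every library lay between 1.60 and 2.51 times its own threshold. The probe ranked 67 to 86 in mutant and 67 to 84 in wild type libraries. It took 0.0765% ± 0.0122 of the mouse miRNA counts in mutant and 0.0887% ± 0.0112 in wild type samples (SD, n = 5 each). The negative controls averaged 38.9 to 58.5 counts per library, which is 16.5% to 27.5% of the 5p count and 0.159% to 0.285% of the 3p count of the same library.

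**Figure D1:**
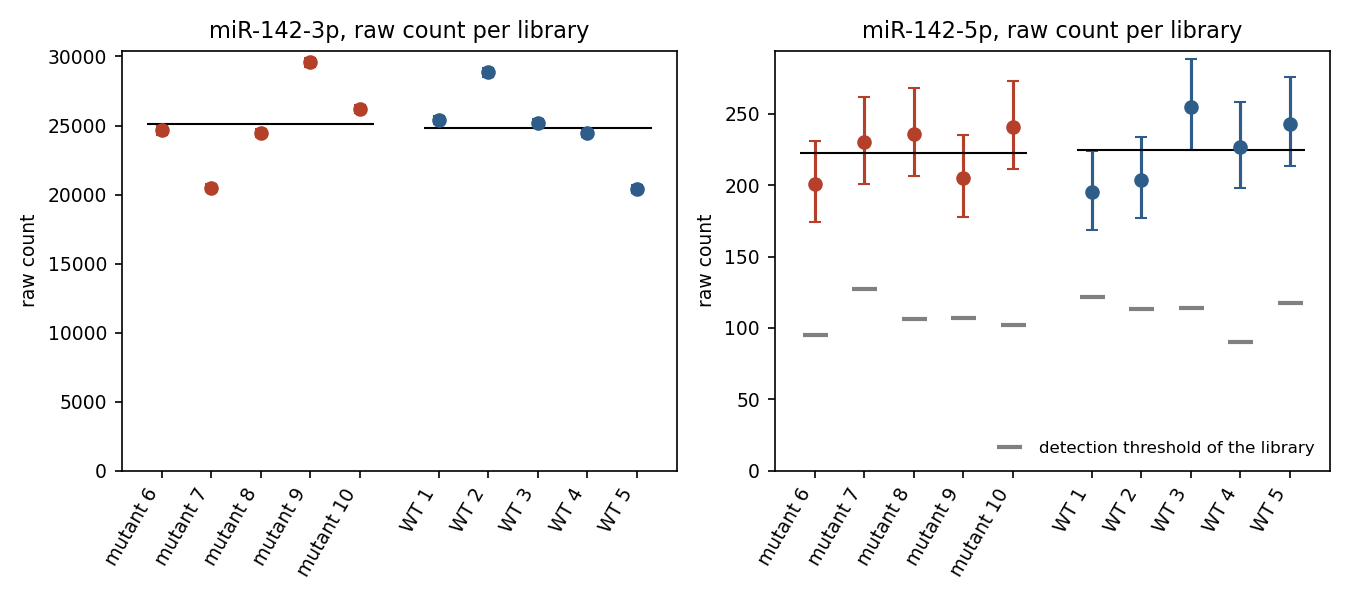
Raw counts of miR-142-3p (left) and miR-142-5p (right) in each library, with mutant samples in red and wild type samples in blue. Bars are exact 95% Poisson intervals, black lines are group means and the grey marks on the right are the detection thresholds. The 3p counts lie between 20401 and 29587, the 5p counts between 195 and 255, and the groups overlap in both.

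Neither arm differed between the genotypes beyond the spread of the samples. In counts scaled with TMM factors, miR-142-3p averaged 23651 ± 2347 in mutant and 26447 ± 2596 in wild type samples (SD, n = 5 each). The fold change was 0.894 (log2 fold change -0.16, SE 0.09, approximate 95% interval -0.37 to 0.05; edgeR quasi-likelihood adjusted p = 0.407). miR-142-5p averaged 211 ± 25.0 in mutant and 240 ± 33.5 in wild type samples (SD, n = 5 each). Its fold change was 0.878 (log2 fold change -0.19, SE 0.13, interval -0.49 to 0.11; edgeR adjusted p = 0.494). As folds, the intervals run from 0.773 to 1.04 for 3p and from 0.714 to 1.08 for 5p, so they hold both no difference and a mutant level at these lower bounds.

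The fit over the whole panel called no miRNA. At an adjusted p of 0.05, edgeR called 0 of the 116 kept miRNAs (0%), with 11 (9.48%) at an unadjusted p under 0.05. limma-voom also called 0 and DESeq2 called 5, with neither arm among them (DESeq2 adjusted p = 0.335 for 3p and 0.439 for 5p). The 2 groups did not overlap for 3 of the 116 (2.59%), and neither arm was among them. Leaving out mutant 9 and 10 gave 5 calls, and leaving out mutant 6, 7 and 8 gave 20, again without either arm. Both arms had values below 0, as did 50% of the kept miRNAs, and their absolute fold changes ranked 51 and 57 of 116 from the smallest.

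The sign of both small values depended on the scaling. With the positive controls as scale, the log2 fold change was 0.05 for 3p and 0.01 for 5p, and with the housekeeping mRNAs it was 0.32 and 0.27. These scales also moved the median of all kept miRNAs, to 0.20 and 0.46, against -0.00 with TMM. Set against that median, 3p lay at -0.16 with TMM, -0.15 with positive controls and -0.14 with housekeeping mRNAs. On the same 3 scales 5p lay between -0.19 and -0.18. A scale moves all probes of a library by the same factor, so these distances could hardly change and are no independent support. Without the filter, over all 566 probes, 3p lay 0.08 and 5p 0.05 above the median. Unscaled 3p counts averaged 25082 ± 3281 in mutant and 24849 ± 3012 in wild type samples (SD, n = 5 each; exact two-sided permutation p = 0.817). Unscaled 5p counts averaged 223 ± 18.4 in mutant and 225 ± 25.3 in wild type samples (exact permutation p = 0.881). Both differences were smaller than the spread.

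**Figure D2:**
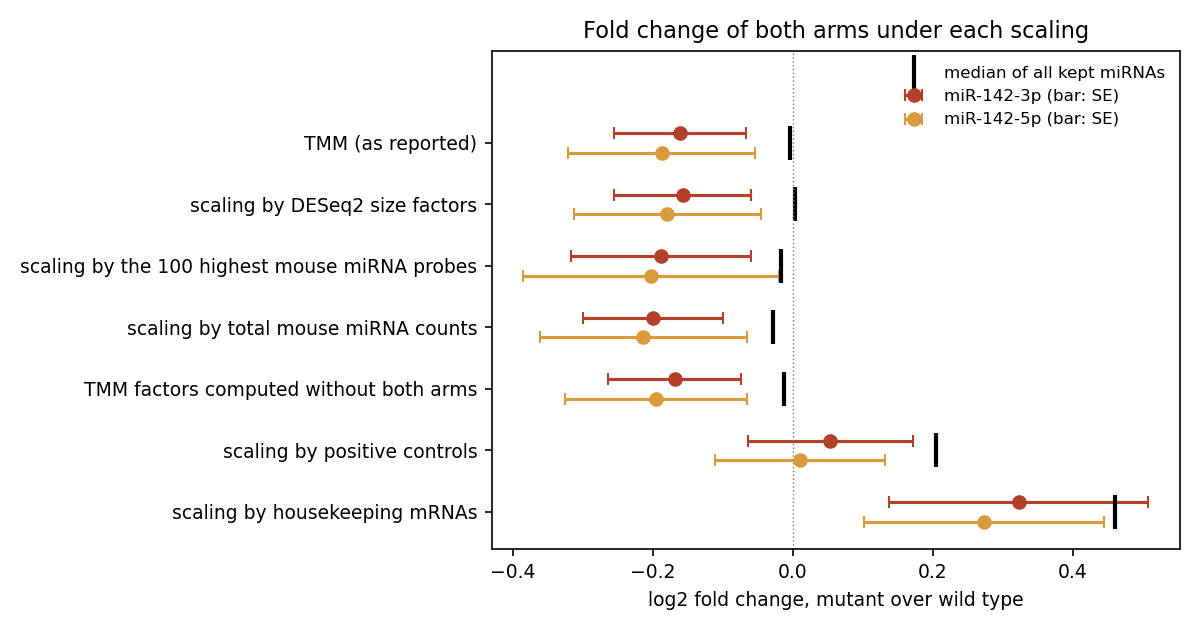
Log2 fold change, mutant over wild type, of miR-142-3p (red) and miR-142-5p (orange) under each way of scaling, with SE bars; the black mark is the median of the 116 kept miRNAs. Both arms lie to the left of that median under each scaling shown, and both move right of 0 with the positive controls and the housekeeping mRNAs. All probes of a library move together when the scale changes.

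The share of mouse miRNA counts held by both arms together averaged lower in mutant samples, by a difference that missed the threshold. It was 9.90%, 8.13%, 8.59%, 8.40% and 7.98% in mutant 6 to 10, against 9.62%, 11.4%, 9.67%, 10.3% and 8.36% in wild type 1 to 5. Mutant 6 lay above 3 wild type libraries, and wild type 5 lay below 3 mutant libraries. The difference was -1.27 percentage points (mutant minus wild type, 95% interval -2.70 to 0.15; exact two-sided permutation p = 0.0873, adjusted p = 0.143 over 3 shares, n = 5 each). For 3p alone the difference was -1.26 (exact permutation p = 0.0952) and for 5p alone -0.0121 (exact permutation p = 0.143), each also with an adjusted p of 0.143. With all 10 libraries the difference did not pass, and it passed only when mutant 6 or wild type 5 was left out. These had the highest share of the mutant group and the lowest of the wild type group. Without mutant 6 the difference was -1.60 and without wild type 5 it was -1.65, both with an adjusted exact permutation p of 0.0476. The total behind this share was itself highest in mutant 9 and 10, at 354826 and 331407 counts, against 251192 to 287546 in the other mutant libraries and 240469 to 266022 in wild type libraries. Without mutant 9 and 10 the difference was -0.999 (exact permutation p = 0.25, adjusted p = 0.402). As a share of all probe counts the difference was -0.535 (exact permutation p = 0.238). As a share of the kept mouse miRNA probes it was -1.51 (exact permutation p = 0.0714). With the mean negative control subtracted it was -1.57 (exact permutation p = 0.0556, adjusted p = 0.0833). It was -2.06 when the other abundant miRNA probes were left out of the total (exact permutation p = 0.103), so its size depended on the denominator.

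The 3p count was 84.0 to 144 times the 5p count of the same library, with no difference between genotypes beyond the spread. The ratio of counts was 123, 89.2, 104, 144 and 109 in mutant 6 to 10. In wild type 1 to 5 it was 130, 141, 98.7, 108 and 84.0. Both groups spanned nearly the same range. The mean log2 ratio was 6.81 ± 0.26 in mutant and 6.79 ± 0.30 in wild type samples (SD, n = 5 each). Their difference of 0.02 (SE 0.18, 95% interval -0.39 to 0.44) had an exact two-sided permutation p of 0.873, where 5 samples against 5 allow no p below 0.00794. The interval corresponds to a change of the ratio by 0.762 to 1.35 times. This ratio needs no scaling, since both counts come from 1 library, but it is a ratio of probe counts: capture by the probes and ligation efficiency may differ between arms, so it is not a ratio of molecules in the cell.

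In each genotype, the counting intervals of the lowest and the highest arm ratio did not overlap. The exact 95% binomial interval was 78.3 to 102 in mutant 7 and 126 to 166 in mutant 9. It was 74.0 to 95.7 in wild type 5 and 123 to 163 in wild type 2. In order of the ratio, 0 of 9 neighbouring pairs of libraries had separate intervals, while 16 of all 45 pairs, within and across genotypes, did. For the counts themselves, 39 of 45 pairs had separate Poisson intervals for 3p and 1 of 45 for 5p. These intervals cover counting error only, which is relatively smaller for 3p, and the counts are not scaled for library totals. The 39 against 1 is therefore no measure of how much each arm varied. Raw counts had coefficients of variation of 11.9% for 3p and 9.34% for 5p. Subtracting the mean negative control raised the ratio to between 119 and 188 in mutant and between 109 and 193 in wild type libraries, so the size of the ratio depends on how background is treated.

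**Figure D3:**
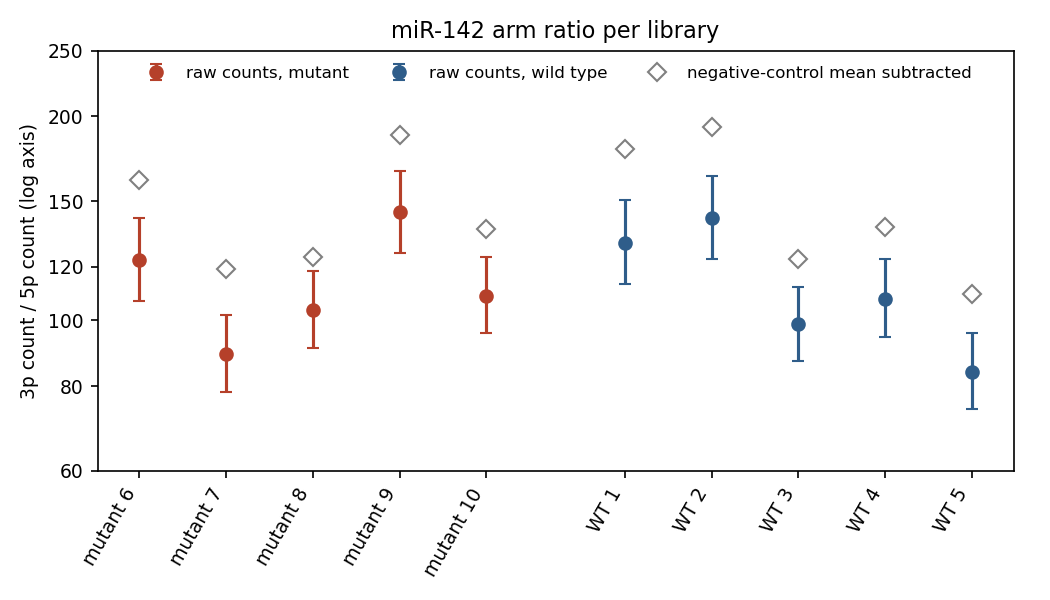
Ratio of miR-142-3p to miR-142-5p counts in each library on a log axis, mutant in red and wild type in blue, with exact 95% binomial intervals; grey diamonds show the ratio after the mean negative control was subtracted. Raw ratios run from 89.2 to 144 in mutant and from 84.0 to 141 in wild type libraries.

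Other hairpins on the panel gave little to set beside this imbalance. The panel held both arms of 65 hairpins. Both arms were kept for 2 of them, miR-142 and miR-423, 1 arm for 8, and neither for 55. At the counts of miR-423, a far more uneven pair would have lost 1 arm to the filter. Its balance was thus largely set by that filter, and it gives no scale for the ratio of miR-142. The arms of miR-423 were counted at similar levels, with 273 to 379 counts for 3p and 179 to 318 for 5p in the 10 libraries. Their ratio ran from 1.11 to 1.53 in mutant and from 1.13 to 1.54 in wild type libraries. The difference of the mean log2 ratio was -0.09 (95% interval -0.34 to 0.17; exact permutation p = 0.452, adjusted p = 0.873 over 2 hairpins, n = 5 each).
miR-423-3p: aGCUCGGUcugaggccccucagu
miR-423-5p: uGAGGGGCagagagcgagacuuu
These sequences have the seed in capitals and lie at chr11:77078086-77078108 and chr11:77078122-77078144 (minus strand, GRCm38.p6). They are shown because their base composition differs from that of miR-142. It was 65.2% and 56.5% G and C, against 34.8% in miR-142-3p and 33.3% in miR-142-5p. Whether base composition bears on the arm ratios was not tested. Of the hairpins with 1 kept arm, named after their values were seen, miR-342 and miR-139 had the kept arm farthest above the threshold. miR-342-3p averaged 10.8 times the threshold of its library while miR-342-5p counted 40 to 68, and miR-139-5p averaged 5.53 times the threshold while miR-139-3p counted 27 to 51. A ratio against an arm at background is only a lower bound, so these hairpins are not ranked against miR-142.

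The 3p count was within the range that the assay's own controls covered. The most concentrated positive control, POS_A, counted 23457 to 28815, and miR-142-3p reached 0.733 to 1.15 times that count in mutant and 0.814 to 1.003 times in wild type libraries. The ligation control LIG_POS_A counted higher, at 37180 to 52730, so counts above those of miR-142-3p were recorded in every lane. miR-142-5p lay between the controls POS_E, at 159 to 180 counts, and POS_D, at 665 to 799.

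No common variation of the 2 arms across libraries was detectable. Over the 10 libraries, log2 normalised 3p and 5p had a Pearson r of -0.02 (permutation p = 0.953) and a Spearman rho of -0.16 (permutation p = 0.657, adjusted p = 0.953 for both, 100000 resamples). Without mutant 7 and wild type 2, the libraries farthest from the median of 3p, r was 0.10 over 8 libraries (permutation p = 0.812). Within a genotype the 5 libraries are too few for a correlation. Housekeeping scaling gave an r of 0.60 (permutation p = 0.0643), and 0.03 without mutant 9 and 10. Positive-control scaling gave an r of -0.27 (permutation p = 0.450) and unscaled counts gave -0.47 (permutation p = 0.174). The normalised 5p range is narrow, and counting error alone amounts to 6.69% of the mean raw 5p count. The coefficient of variation of 5p over the libraries was 9.34% in raw and 14.1% in normalised counts. For 3p the counting error was 0.633%, and the coefficients were 11.9% in raw and 11.02% in normalised counts. Both normalised coefficients were below the median of 17.1% for the kept miRNAs, at ranks 24 (3p) and 39 (5p) of 116 from the lowest.

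**Figure D4:**
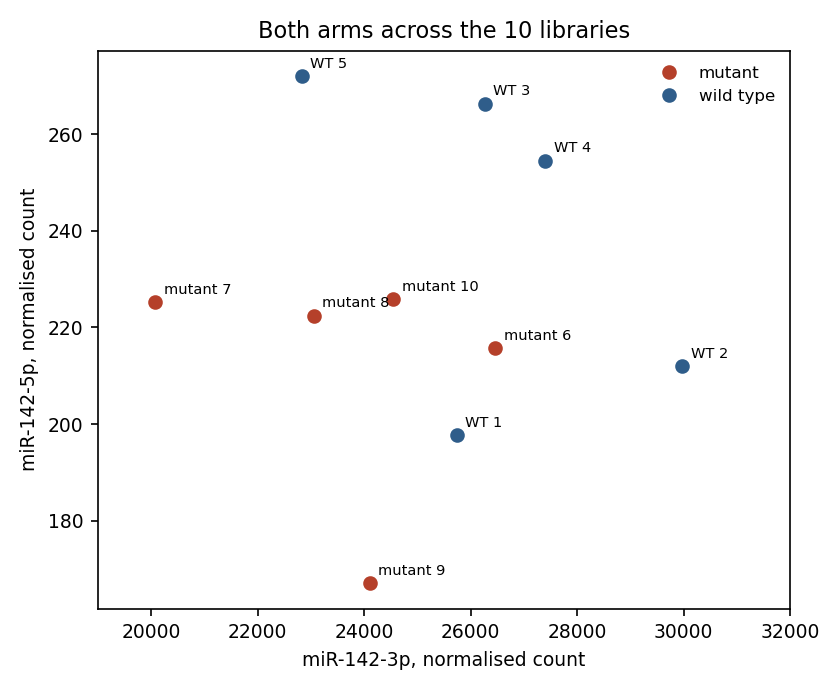
Normalised counts of miR-142-3p (horizontal) and miR-142-5p (vertical), 1 point per library, mutant in red and wild type in blue; the axes do not start at 0. The points show no clear common trend (r = -0.02), and mutant 9 is lowest in 5p at 167.

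Mutant 9 had the lowest normalised 5p count, 167, while the other mutant libraries lay close together at 216 to 226 and wild type libraries at 198 to 272. For normalised 3p, mutant 9 and 10 stood at 24109 and 24550, inside the range of mutant 6, 7 and 8 (20080 to 26462). The raw 3p counts of mutant 9 and 10, 29587 and 26200, were the highest of the mutant group. Without mutant 9 and 10 the log2 fold changes were -0.19 for 3p and -0.12 for 5p (edgeR adjusted p = 0.441 and 0.651). Without mutant 9 alone they were -0.13 and -0.07 (edgeR adjusted p = 0.640 and 0.800). Without mutant 10 alone they were -0.17 and -0.20 (edgeR adjusted p = 0.486 and 0.604). The 5p value thus depended in large part on mutant 9.

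By mean normalised count, miR-142-3p stood second of the 116 kept probes at 25049, just below miR-16, a miRNA of the miR-15/16 family that restrains the cell cycle and Bcl2, at 25429. Their levels did not differ beyond the spread, and probes of different miRNAs are not calibrated against each other. miR-142-3p counted higher than miR-16 in 1 of 5 mutant libraries and in 4 of 5 wild type libraries. miR-16 itself counted 27366, 27684, 31179, 23148 and 30182 in mutant 6 to 10, against 22298, 22201, 24058, 23172 and 21891 in wild type 1 to 5. The mean log2 ratio of miR-142-3p to miR-16 was -0.16 ± 0.31 in mutant and 0.12 ± 0.18 in wild type samples (SD, n = 5 each). The exact two-sided permutation p for the difference of -0.28 was 0.119, in a test added after these values were seen. Next below was a joint probe for miR-20a and miR-20b, of the miR-17 family, with a mean of 17651, and miR-142-3p counted higher than it in 10 of 10 libraries. miR-142-5p stood at place 78 with a mean of 226, between miR-125a-3p at 228 and miR-484 at 225. miR-142-5p counted above miR-125a-3p in 9 of 10 libraries, the exception being mutant 9 with 1181 counts of miR-125a-3p, and above miR-484 in 6 of 10.

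**Figure D5:**
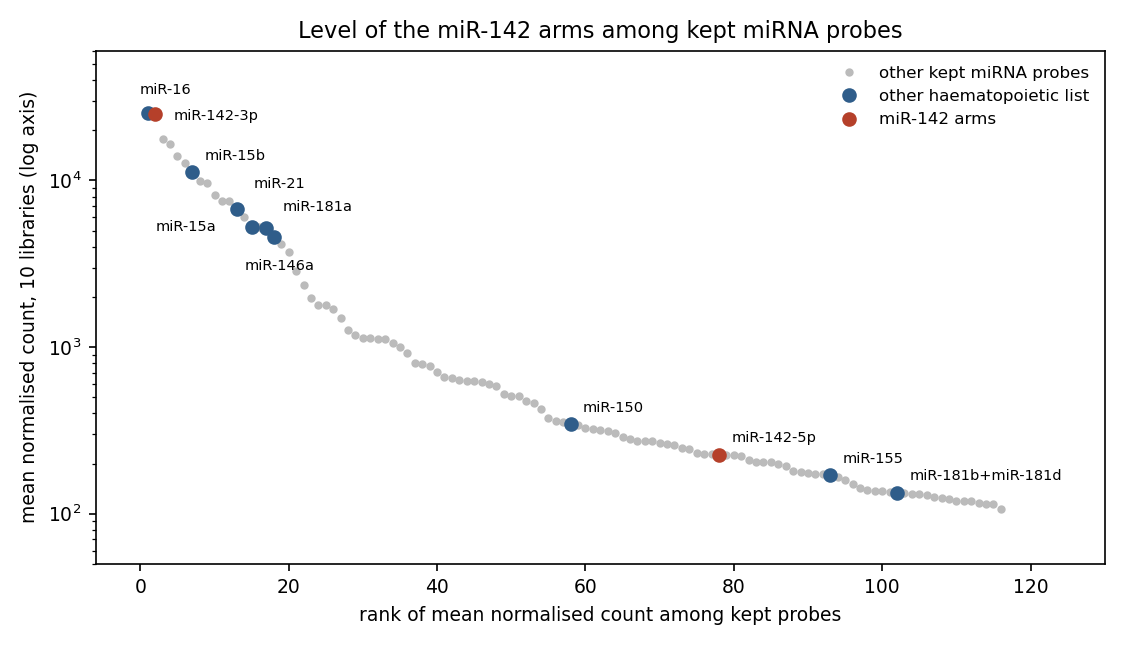
Mean normalised count over the 10 libraries (log axis) against rank for the 116 kept miRNA probes, with the miR-142 arms in red and the other kept members of the haematopoietic list in blue. miR-142-3p is second at 25049 and miR-142-5p is at place 78 at 226.

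miR-142-3p was set beside the 9 other kept miRNAs known from blood and lymphoid cells. Over all 10 libraries, both genotypes pooled, it had a lower coefficient of variation than 8 of them, all but miR-15a. miR-142-5p had a lower one than 5 of the 9. This order did not hold within wild type libraries alone. The list of 15 names corresponded to 14 probes, of which 11 were kept. None passed in edgeR, as for all kept miRNAs (0%), with 7 log2 fold changes above 0 and 4 below and a median of 0.05, against 58 above, 58 below and a median of -0.00 over the 116. Besides both miR-142 arms, miR-15a (-0.06) and miR-21 (-0.29, SE 0.29), a miRNA often raised in tumours, were below 0. Values above 0 belonged to miR-16 (0.13), miR-15b (0.05), miR-150 (0.03, SE 0.64), miR-155 (0.29, SE 0.25), miR-181a (0.54, SE 0.31), the probe for miR-181b and miR-181d (0.11) and miR-146a (1.70, SE 0.98). The coefficient of variation over the 10 libraries was 11.02% for miR-142-3p and 14.1% for miR-142-5p. It was 10.2% for miR-15a, 13.1% for miR-15b and for miR-16, and 13.8% for miR-181b with miR-181d. It reached 44.97% for miR-181a, which tunes antigen receptor signalling, 70.9% for miR-150, a miRNA of mature lymphocytes that targets Myb, and 139% for miR-146a, which is induced by NF-kB. Within wild type libraries the coefficient was 9.82% for miR-142-3p and 13.9% for miR-142-5p. There it was lower for miR-15b (5.53%), miR-15a (5.57%), miR-16 (5.79%), miR-181a (5.97%) and miR-181b with miR-181d (6.59%). It was 12.9% for miR-21, 37.1% for miR-155, 44.2% for miR-146a and 49.99% for miR-150. In mutant libraries it was 9.92% for miR-142-3p, 11.9% for miR-142-5p and 51.1% for miR-181a. miR-181c, miR-146b and miR-223, a myeloid miRNA, were not kept.

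The kept miRNAs whose pattern over the 10 libraries was most like that of miR-142-3p, by Pearson r of log2 normalised counts, were miR-1198 (r = 0.75), miR-1965 (0.73) and miR-27a (0.68). The least alike were miR-26b (-0.59), miR-2183 (-0.57) and miR-101b (-0.57). For miR-142-5p they were miR-185 (0.75), miR-19a (0.72) and the probe of miR-20a and miR-20b (0.66), and at the other end miR-155 (-0.84), let-7a (-0.76) and miR-130b (-0.76). The other arm of miR-142 ranked 60th of 115 miRNAs by likeness to 3p and 57th of 115 by likeness to 5p. These values describe 10 points that share a scaling factor, and the named probes were picked as extremes among the kept miRNAs. For miR-1198, miR-1965, miR-185 and miR-2183 the counts were close to background (means of 143, 114, 135 and 115). miR-340-5p, which shares the shifted seed letters, had an r of -0.11 with miR-142-5p, with 32 to 390 raw counts in mutant and 22 to 247 in wild type libraries, and a log2 fold change of 0.12 (SE 0.74; edgeR adjusted p = 0.970).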

How the data were processed

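The labels' protocols describe miRNeasy extraction of total RNA, a purity cut-off for samples and 100 ng of input per nCounter assay. The deposited tables hold raw counts per probe: control probes and totals differ between lanes, and all 6260 values of the 2 deposited tables are equal. Further steps by the authors were not given in the sources used here. Summary columns of the table were left out because they cover lanes beyond the 10 described. Groups were taken from the sample titles, whose numbers pair no samples.

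Genotypes were compared over the 116 kept miRNAs by the robust quasi-likelihood fit of edgeR 4.0.16 under R 4.3.3. TMM scaling and Benjamini-Hochberg adjustment at 0.05 were used. The procedure was tested on simulated data with larger changes than those of the arms, so its power for small changes is not known. Normalised counts are counts divided by the effective library size and multiplied by its mean. Intervals of fold changes use the fit's SE and its 9.75 degrees of freedom, and intervals of other differences allow unequal variances. For ratios, shares and raw counts, group means were tested by exact permutation, two-sided. Named miRNAs were both arms, the kept haematopoietic list, the neighbours in level, the 3 most and least similar probes per arm and hairpins with both arms kept. Members, lists and tests were chosen with earlier results of these data known. Alternatives were 5 other scalings, TMM without both arms, no or a stricter filter, background subtraction, DESeq2 1.42.0, limma-voom (3.58.1), no robust estimation and leaving out libraries. Leaving out mutant 6, 7 and 8, and leave-one-out runs of the correlation and of miR-423, were added after the data were seen. Sequences came from RefSeq tables of GRCm38.p6, matched by name through the gene's synonyms.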

Additional observations from a re-analysis of the deposited data

Results flagged for a closer look

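Among 16 groups of 5 values tested for a library far from the rest, 1 was found, where chance gives about 1 in 20. The normalised miR-142-5p count of mutant 9 was 167, against 216 in the nearest mutant library. The gap made up 0.828 of the range of the mutant group, above Dixon's critical value of 0.71. The raw 5p count of mutant 9 was 205, above that of mutant 6 at 201, and its mouse miRNA total was the highest of the 10 libraries.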

How the results depend on the processing

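The log2 fold changes of both arms kept their direction and failed the test under the other alternatives, but turned positive without the filter (0.041 for 3p and 0.013 for 5p), with positive-control scaling (0.054 and 0.011) and with housekeeping scaling (0.32 and 0.27). The housekeeping and positive-control scales moved the median of all kept miRNAs; the cause of the change without the filter was not tested. Leaving out single libraries gave -0.21 to -0.11 for 3p and -0.25 to -0.07 for 5p. The arm ratio difference changed sign when the mean (-0.015) or the mean + 2 SD (-0.042) of the negative controls was subtracted and without mutant 9 and 10 (-0.083), and ran from -0.076 to 0.112 with single libraries left out. The share difference ran from -1.65 to -0.881 percentage points with single libraries left out, and passed without mutant 6 or wild type 5; over the other alternatives it ran from -2.06 (other abundant probes left out of the total) to -0.535 (share of all probe counts), without passing. The arm correlation was 0.60 with housekeeping, 0.17 with total and -0.27 with positive-control scaling, and -0.47 for unscaled counts. It was -0.13 to 0.13 with single libraries left out. The miR-423 difference ran from -0.16 to -0.03. The number of miRNAs called was 5 in DESeq2, 5 without mutant 9 and 10, 20 without mutant 6, 7 and 8, and 0 to 1 with single libraries left out; the cause was not tested. No paired analysis was possible because the groups share no replicate numbers. Counting error is 6.69% of the mean 5p count and 0.633% of the mean 3p count, and 5p counts lie at 1.60 to 2.51 times the detection threshold.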
